A study of Homo sapiens with 8 samples.

Results

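The genes described here store, import, export and sense iron. FTH1, FTL, TFRC, SLC40A1, SLC11A2, IREB2, ACO1, NCOA4, FBXL5 and TF were taken by symbol, and all 10 were found among the 58828 genes of the count tables. RNA-seq was performed in 22RV1 and DU145, both established human prostate cancer cell lines, to ask how PAGE4 overexpression changes the transcriptome under oxidative stress. PAGE4 is a cancer testis antigen. Cells of each line had been transduced with a lentiviral pLVX-TetOne-Puro vector, selected with puromycin and given doxycycline. The vector was either empty or carried HA-tagged PAGE4 under a doxycycline-inducible promoter, and the cells then received PBS or H2O2 for 12 h, at 200 mM as the labels give it. The study names lower doses for other assays, and whether the unit given for these libraries is right could not be checked. The groups were thus 22RV1 vector with PBS, 22RV1 vector with H2O2, 22RV1 PAGE4 with PBS, 22RV1 PAGE4 with H2O2, and the corresponding 4 groups of DU145. All groups shared the doxycycline, the selection and the vector backbone. Each group had 1 library, so the tests below measure the spread between these 8 libraries, and nothing in the labels says that any pair was repeated with separate cultures.

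Ferritin is a shell of heavy chains (FTH1) and light chains (FTL) that holds iron in a non-reactive form, and transferrin receptor 1 (TFRC) brings transferrin-bound iron into the cell. When iron is scarce, the iron regulatory proteins encoded by ACO1 and IREB2 bind hairpins called iron-responsive elements: binding in a 5' UTR blocks translation, and binding in the 3' UTR of TFRC stabilizes the mRNA. RNA-seq counts mRNA, so they can hold the stability effect but not the translation effect. Iron matters under H2O2 because ferrous iron turns H2O2 into hydroxyl radicals.

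The elements are shown because they are the sequences through which these genes are wired to iron. UTRs of GENCODE release 44 transcripts were searched on the sense strand for an unpaired C, 5 bases, CAGTGN and 5 bases, with both 5-base runs pairing with each other, G-U pairs allowed. Each line gives 29 bases of the reference on GRCh38, 5' to 3' on the strand of the gene, and the capitals mark the CAGTGN loop.
FTH1, 5' UTR: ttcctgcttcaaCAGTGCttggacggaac
FTL, 5' UTR: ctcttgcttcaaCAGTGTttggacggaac
SLC40A1, 5' UTR: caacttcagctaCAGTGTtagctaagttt
TFRC, 3' UTR, element 1: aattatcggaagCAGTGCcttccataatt
TFRC, 3' UTR, element 2: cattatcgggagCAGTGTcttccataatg
TFRC, 3' UTR, element 3: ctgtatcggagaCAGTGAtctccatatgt
TFRC, 3' UTR, element 4: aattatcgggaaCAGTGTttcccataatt

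The ferritin elements lie at chr11:61967574-61967602 on the minus strand for FTH1 and at chr19:48965335-48965363 on the plus strand for FTL. The element of SLC40A1 lies at chr2:189580661-189580689 on the minus strand. The TFRC elements lie on the minus strand at chr3:196050979-196051007, chr3:196050575-196050603, chr3:196050510-196050538 and chr3:196050463-196050491. A match was found in 19 of 19224 canonical 5' UTRs, or 0.0988%, and in 121 of 19229 canonical 3' UTRs, or 0.629%. TF also had 1 match, in a 3' UTR of 18021 bases. The element was present in 7 of 8 coding transcripts of FTH1, 1 of 1 of FTL, 10 of 11 of TFRC and 1 of 5 of SLC40A1, and counts per gene do not separate such isoforms. None of the 17 coding transcripts of SLC11A2 held a match to this rule, and neither did those of IREB2, ACO1, NCOA4 or FBXL5. The rule requires the 5-base runs to pair at every position, so an element with an imperfect stem would be missed. The lack of a match therefore does not show that a gene has no element, and further elements of the genes listed could also be missed. A match of letters is a description of the transcript and not a measurement of protein binding.

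Total counts per library ranged from 25482984 to 43310401. PAGE4 had 1489 and 1179 reads in the 22RV1 PAGE4 libraries, 1001 and 1431 in those of DU145, and at most 1 in any vector library. HOXB13, which marks luminal prostate cells, was at 78.0 to 220 CPM (counts scaled to the library size) in 22RV1 and at most 0.13 in DU145. Of the mesenchymal or basal markers, VIM, CAV1 and AXL were higher in every DU145 library than in any 22RV1 library. CD44 and LGALS1 went the other way, higher in 22RV1 in each matched condition. KRT8 and KRT18, epithelial keratins, were present in both lines. In 22RV1 HOXB13 was at 192 and 220 CPM with PBS and at 78.0 and 105 CPM with H2O2, and the luminal markers KLK2, KLK3 and TMPRSS2 were also lower with H2O2 in both pairs, so they moved with the treatment in that line. Of the 6 markers of blood, endothelial and fibroblast cells, COL1A1 was at 5.49 to 30.1 CPM and the others were under 1 CPM in every library. In 22RV1 COL1A1 was at 8.73 and 12.2 CPM with PBS and at 21.8 and 30.1 CPM with H2O2. Mitochondrial genes took 8.97% to 16.5% of reads, less with H2O2 in each pair. The part of these shifts in the results below was not tested. In bulk RNA, fewer cells of a kind and less RNA per cell cannot be told apart.

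Per length of the canonical transcript, as RPKM (reads scaled to library size and transcript length), ferritin led the list in both lines. FTL had a median of 401 RPKM in 22RV1 (332 to 496) and 2950 RPKM in DU145 (2703 to 3678). FTH1 followed with a median of 245 RPKM in 22RV1 (153 to 345) and 710 RPKM in DU145 (449 to 871). The FTL and FTH1 ranges overlapped in 22RV1 and were separate in DU145. Below them stood TFRC and NCOA4, the receptor that carries ferritin to lysosomes for iron release. NCOA4 had a median of 53.0 RPKM in 22RV1 and 54.0 RPKM in DU145, and TFRC had 49.8 and 86.0 RPKM, with overlapping ranges in each line. SLC11A2 (DMT1, a ferrous iron importer), IREB2, FBXL5, ACO1 and SLC40A1 followed in 22RV1 with medians of 29.7, 17.0, 8.78, 4.72 and 2.93 RPKM, and none of these ranges overlapped. In DU145 the order was FBXL5 (22.0 RPKM), IREB2 (16.5), SLC11A2 (14.4), ACO1 (5.05) and SLC40A1 (3.10), with IREB2 overlapping SLC11A2 and ACO1 overlapping SLC40A1. TF, the plasma iron carrier made mainly by the liver, had 23, 35, 6 and 16 reads in the 22RV1 libraries and 7, 7, 2 and 1 in DU145. It did not pass the filter on low counts and was not tested, so the tests below concern 9 genes. Its annotated transcript also shares 122 exonic bases with SRPRB on the same strand.

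**Figure D1:**
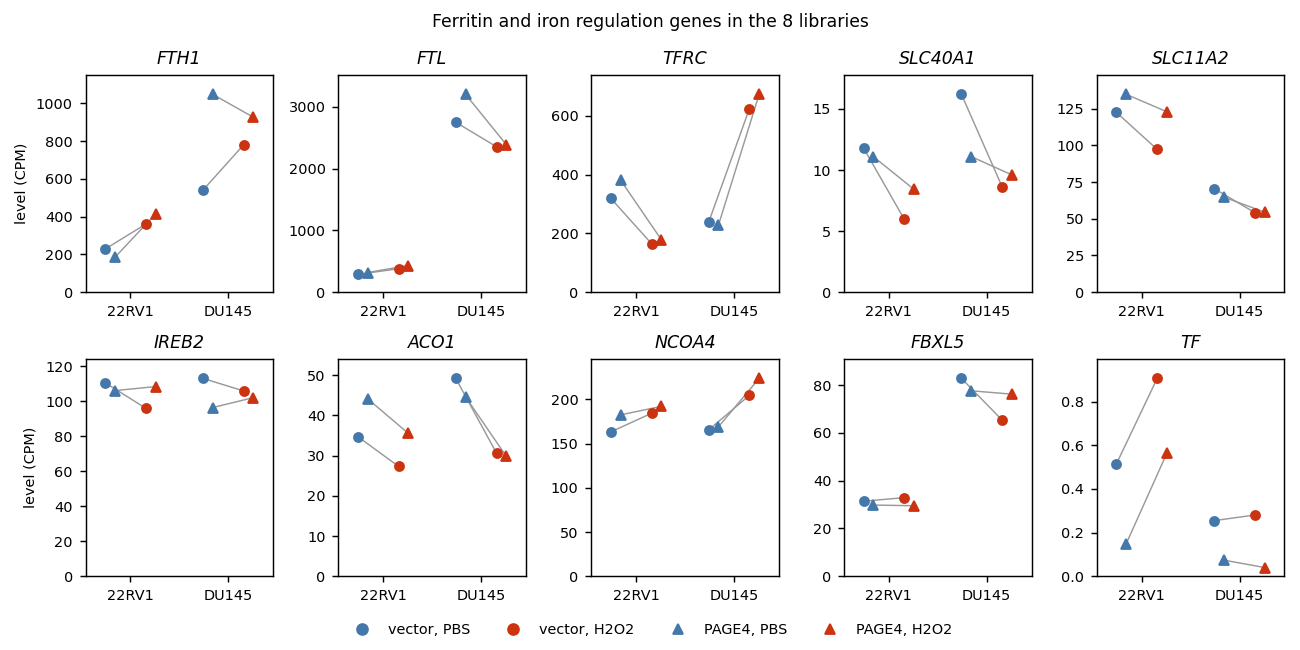
Level of each gene in CPM, with a linear axis from 0, for the 8 libraries by cell line. Points are single libraries, lines join the PBS and H2O2 libraries of a construct, and the TFRC lines slope down in 22RV1 and up in DU145.

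Among the 9 tested genes, the ferritin genes differed most between the lines. FTL was at 289, 380, 319 and 432 CPM in 22RV1 (vector PBS, vector H2O2, PAGE4 PBS and PAGE4 H2O2, the order kept below) and at 2751, 2354, 3203 and 2388 CPM in DU145. Every DU145 library lay above every 22RV1 library. The difference of 22RV1 against DU145 was -2.92 on the log2 scale (SE 0.18), or 7.56-fold lower, with an adjusted p = 8.29e-06 (edgeR's quasi-likelihood test, Benjamini-Hochberg over 19784 genes).

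FTH1 was lower in 22RV1 by 2.82-fold (log2 fold change -1.50, SE 0.23, adjusted p = 0.000889), again without overlap. FBXL5, part of the ubiquitin ligase that removes IREB2 protein when iron is plentiful, was at 29.5 to 32.9 CPM in 22RV1 and 65.3 to 82.8 CPM in DU145, 2.43-fold lower in 22RV1 (adjusted p = 4.94e-05). SLC11A2 was the member higher in 22RV1, at 97.2 to 134.7 CPM against 54.1 to 70.5 CPM, 1.96-fold (adjusted p = 0.000128). Thus 4 of 9 genes were called, beside 63.2% of all genes tested, so a call between the lines was common. SLC40A1, IREB2, ACO1 and NCOA4 were not called, with log2 fold changes between -0.29 and 0.01. TFRC was not called either (-0.67, SE 0.50, adjusted p = 0.277), and its libraries overlapped.

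Ferritin pseudogenes are a limit on FTH1 and FTL, since how multi-mapped reads were counted is not given in the sources used here. The 25 listed FTH1 pseudogenes took 1.90% to 5.86% of the reads of FTH1 and its pseudogenes in 22RV1, and 0.66% to 0.74% in DU145. FTH1P20 alone held 466, 177, 162 and 78 reads in 22RV1 and at most 4 in any DU145 library. The 16 FTL pseudogenes took at most 0.98% in any library. BEST1 shares 1267 exonic bases with FTH1 on the opposite strand and had 25 to 301 reads per library, against 7418 to 28392 for FTH1.

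H2O2 moved TFRC and FTL in opposite directions in the 2 lines. For FTH1 the difference between the lines was not called without the DU145 PAGE4 pair, and the single vector pairs were alike (0.68 and 0.57). In 22RV1, 6 of 9 genes were called, beside 32.1% of all genes: FTH1 and FTL were higher, and TFRC, SLC40A1, SLC11A2 and ACO1 were lower. In DU145, 6 of 9 were also called, beside 41.9%: TFRC and NCOA4 were higher, and FTL, SLC40A1, SLC11A2 and ACO1 were lower. Both tests draw on the 2 pairs of a line with a spread shared by all 8 libraries. The difference between the lines was called for TFRC, FTL and FTH1, or 3 of 9 genes, beside 19.5% of all genes.

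TFRC was at 320, 165, 382 and 179 CPM in 22RV1 and at 238, 625, 228 and 674 CPM in DU145. Both H2O2 libraries lay below both PBS libraries in 22RV1 and above them in DU145. The log2 fold change of TFRC with H2O2 was -1.02 in 22RV1 (SE 0.08, 2.03-fold, adjusted p = 5.57e-09) and 1.48 in DU145 (SE 0.08, 2.79-fold, adjusted p = 2.98e-11).

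The difference of these TFRC effects, 22RV1 minus DU145, was -2.50 (SE 0.11, 95% interval -2.73 to -2.27, adjusted p = 5.57e-12), rank 7 of 19784 genes by p. Leaving out any 1 pair kept it between -2.63 and -2.42. Across the 4 pairs, with a single H2O2 effect for both lines, the opposite changes gave 0.23 (SE 0.50, adjusted p = 0.773).

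FTH1 was at 228, 361, 184 and 415 CPM in 22RV1 and at 540, 781, 1048 and 926 CPM in DU145. The 22RV1 libraries with H2O2 lay above both with PBS, while in DU145 the PAGE4 library with PBS was the highest of all. H2O2 raised FTH1 by 0.91 in 22RV1 (SE 0.12, 1.89-fold, adjusted p = 1.05e-05), and in DU145 the estimate was 0.18 (SE 0.12, adjusted p = 0.270).

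Single pairs, each with 1 library per side and hence no test, differed between the DU145 constructs. H2O2 against PBS was 0.57 in DU145 vector cells (95% counting interval 0.54 to 0.60) and -0.12 in DU145 PAGE4 cells (-0.15 to -0.10), against 0.68 and 1.16 in 22RV1 vector and PAGE4 cells. The DU145 estimate was called without the DU145 PAGE4 pair (0.53, adjusted p = 0.0026), without either 22RV1 pair (0.22, adjusted p = 0.0147 and 0.017) and without the filter on low counts (0.21, adjusted p = 0.00897), so the call depends on the setting. The FTH1 difference between the lines was 0.74 (SE 0.17, adjusted p = 0.00466), and it was 0.38 (adjusted p = 0.134) without the DU145 PAGE4 pair. With the Wald test of DESeq2 it was 0.70 (adjusted p = 0.271).

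FTL rose by 0.42 with H2O2 in 22RV1 (SE 0.07, 1.33-fold, adjusted p = 0.000124) and fell by 0.32 in DU145 (SE 0.07, 1.25-fold, adjusted p = 0.000765). The single pairs gave 0.41 and 0.43 in 22RV1 vector and PAGE4 cells, and -0.18 and -0.37 in DU145. The difference between the lines was 0.74 (SE 0.10, adjusted p = 2.16e-05) and lay between 0.64 and 0.84 when 1 pair was left out. The DU145 decrease alone was not called without the DU145 PAGE4 pair (-0.22, adjusted p = 0.119).

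**Figure D2:**
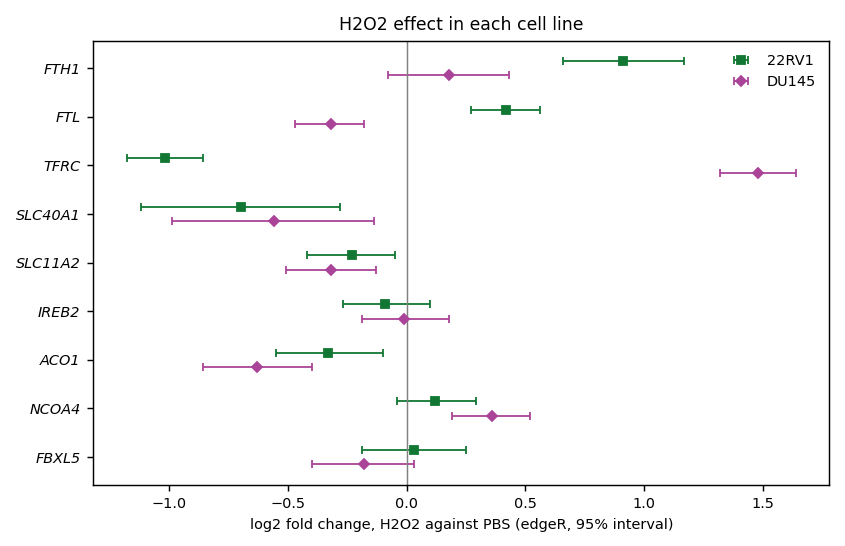
Log2 fold change of H2O2 against PBS for the 9 tested genes in 22RV1 (squares) and DU145 (diamonds), from edgeR, with bars for 95% intervals. The intervals of TFRC, FTL and FTH1 in 22RV1 do not meet those in DU145, and the other 6 genes overlap.

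Ratios of reads inside a library do not depend on how libraries are scaled. The log2 ratio of TFRC to FTH1 reads went from 0.49 to -1.13 in 22RV1 vector cells and from 1.05 to -1.21 in 22RV1 PAGE4 cells. It went from -1.19 to -0.32 in DU145 vector cells and from -2.20 to -0.46 in DU145 PAGE4 cells. In 22RV1 the ratio was above 0 in both PBS libraries and below 0 in both H2O2 libraries, and in DU145 it stayed below 0 and was higher with H2O2 in both pairs. A ratio shows unequal change of its 2 genes and not which of them moved.

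The light chain gave more reads than the heavy chain in all 8 libraries. FTL to FTH1 was 1.27, 1.05, 1.73 and 1.04 in reads in 22RV1 and 5.09, 3.01, 3.06 and 2.58 in DU145. It was lower with H2O2 in each of the 4 pairs, and the ranges of the lines did not overlap. Per length, the ratio was 1.44 to 2.39 in 22RV1 and 3.56 to 7.03 in DU145.

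**Figure D3:**
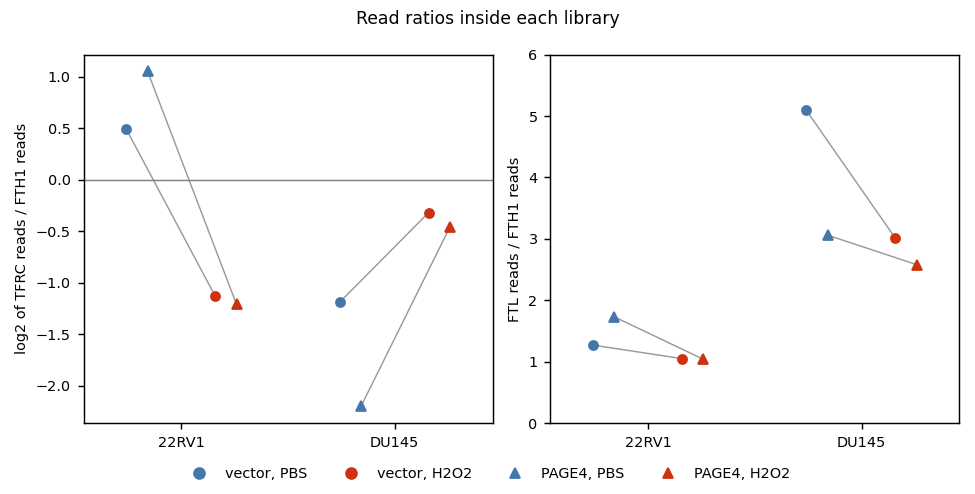
Read ratios inside each library: log2 of TFRC over FTH1 reads on the left, and FTL over FTH1 reads on a linear axis from 0 on the right. Lines join the PBS and H2O2 libraries of a construct, and the TFRC to FTH1 ratio falls with H2O2 in 22RV1 and rises in DU145.

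SLC40A1, ferroportin, is the iron exporter of the cell. It was at 11.8, 5.96, 11.1 and 8.41 CPM in 22RV1 and at 16.2, 8.62, 11.1 and 9.60 CPM in DU145, from 215 to 528 reads. Each H2O2 library lay below both PBS libraries of its line. It fell by 0.70 in 22RV1 (SE 0.20, adjusted p = 0.0115) and by 0.56 in DU145 (SE 0.20, adjusted p = 0.0313). Neither call held without the vector pair of its line, at -0.42 (adjusted p = 0.237) in 22RV1 and -0.21 (adjusted p = 0.658) in DU145, and the DU145 call was also lost with total counts (adjusted p = 0.0504) and with DESeq2 (adjusted p = 0.109).

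In single pairs with H2O2, 4 of 10 genes of the list passed a fold change of 1.5 in 22RV1 vector cells and 3 of 10 in 22RV1 PAGE4 cells. In DU145, where TF was under the count minimum, 3 of 9 passed in vector cells and 1 of 9 in PAGE4 cells. The shares of all genes were 37.4%, 30.5%, 40.3% and 41.3% in that order. TF, not among the tested genes, was counted in both 22RV1 pairs. It had 35 against 23 reads in vector cells (0.82, counting interval 0.03 to 1.66) and 16 against 6 in PAGE4 cells (1.82, 0.49 to 3.56). The SLC40A1 decrease was larger in vector cells, with single-pair values of -0.97 in 22RV1 and -0.87 in DU145, than in PAGE4 cells, with -0.41 and -0.15. These pairs have 1 library a side, and that difference was not tested. Across the 4 pairs SLC40A1 fell by 0.63 (SE 0.18, adjusted p = 0.0426), a call lost when any 1 of the 4 pairs was left out (-0.77 to -0.49, adjusted p from 0.0502 to 0.165) and with total counts (-0.54, adjusted p = 0.0675).

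The importer SLC11A2 was at 122, 97.2, 135 and 123 CPM in 22RV1 and at 70.5, 54.1, 64.7 and 54.4 CPM in DU145. In 22RV1 the PAGE4 library with H2O2 overlapped the vector library with PBS, and in DU145 both H2O2 libraries were below both PBS libraries. The gene fell by 0.32 in DU145 (SE 0.09, adjusted p = 0.00835) and by 0.23 in 22RV1 (SE 0.09, adjusted p = 0.0485). The 22RV1 call was lost with total counts (-0.115, adjusted p = 0.345) with DESeq2 (-0.24, adjusted p = 0.0872) and without the 22RV1 vector pair or either DU145 pair (-0.23 to -0.15), and the DU145 call without the DU145 vector pair (-0.25, adjusted p = 0.207).

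ACO1 encodes cytosolic aconitase, which becomes iron regulatory protein 1 when it lacks its iron-sulfur cluster. Its level was 34.7, 27.3, 44.1 and 35.5 CPM in 22RV1 and 49.2, 30.6, 44.6 and 29.8 CPM in DU145. It was lower with H2O2 in each of the 4 pairs, with separate groups in DU145. ACO1 fell by 0.63 in DU145 (SE 0.11, 1.55-fold, adjusted p = 1.00e-04) and by 0.33 in 22RV1 (SE 0.11, adjusted p = 0.0240). The 22RV1 call was lost with total counts (-0.21, adjusted p = 0.144) with DESeq2 (-0.34, adjusted p = 0.0504) and without the 22RV1 vector pair (-0.33, adjusted p = 0.0977).

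Across the 4 pairs ACO1 fell by 0.48 (SE 0.11, adjusted p = 0.0203). It and SLC40A1 were the 2 of 9 genes called across the pairs, both lower, beside 23.0% of all genes. The ACO1 call was kept without the 22RV1 PAGE4 pair and lost without any other pair, with adjusted p from 0.0513 to 0.0964.

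IREB2, which encodes iron regulatory protein 2, was at 96.1 to 110.7 CPM in 22RV1 and 96.5 to 113.2 CPM in DU145. Its H2O2 estimates were -0.09 (95% interval -0.27 to 0.10) in 22RV1 and -0.01 (-0.19 to 0.18) in DU145, neither called. IREB2 reads exceeded those of ACO1 in every library, by 2.16 to 3.53 times. With H2O2 this ratio went from 3.19 to 3.53 and from 2.41 to 3.05 in 22RV1 vector and PAGE4 cells, and from 2.30 to 3.46 and from 2.16 to 3.43 in DU145.

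NCOA4 was at 163, 184, 183 and 192 CPM in 22RV1 and at 166, 205, 169 and 224 CPM in DU145. In each line both libraries with H2O2 lay above both with PBS. It rose by 0.36 in DU145 (SE 0.08, 1.28-fold, adjusted p = 0.00105), while 22RV1 gave 0.12 (SE 0.08, adjusted p = 0.246). The DU145 call was lost without the DU145 PAGE4 pair (adjusted p = 0.0723), and 22RV1 was called with total counts (0.24, adjusted p = 0.0221). The difference between the lines was not called (-0.23, 95% interval -0.46 to 0.00, adjusted p = 0.160). FBXL5 was not called in 22RV1 (0.03, SE 0.11) or in DU145 (-0.18, SE 0.10, adjusted p = 0.161).

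For the other genes the differences between the lines were not called. They were -0.13 for SLC40A1 (95% interval -0.73 to 0.46), 0.08 for SLC11A2 (-0.18 to 0.35), 0.30 for ACO1 (-0.02 to 0.62), -0.08 for IREB2 (-0.34 to 0.18) and 0.21 for FBXL5 (-0.09 to 0.52). The SLC40A1 interval is wide enough to hold a difference as large as either effect.

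PAGE4 was compared with vector to ask whether the construct moved these genes. Across the 4 pairs, 0 of 9 genes were called by edgeR's quasi-likelihood test, beside 0.136% of all genes. At an unadjusted p under 0.05, for which the share of all genes is not given here, 1 of 9 passed. That gene was FTL, with a log2 fold change of 0.14 (SE 0.06, adjusted p = 0.607). DESeq2 called 0 of 9, and without the filter on low counts edgeR called FTH1. The other estimates ran from -0.04 for IREB2 to 0.27 for FTH1 (SE 0.15, adjusted p = 0.717).

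FTH1 was the gene with the largest single-pair value among the tested genes. PAGE4 against vector with PBS was 0.96 in DU145 (95% counting interval 0.93 to 0.99, 28392 against 14805 reads) and -0.28 in 22RV1 (-0.33 to -0.24). With H2O2 it was 0.26 in DU145 (0.23 to 0.29) and 0.20 in 22RV1 (0.17 to 0.24). The DU145 PBS pair was the only one of the 4 in which FTH1 passed a fold change of 1.5, a limit that 15.3% of genes passed in that pair. It was also the 1 gene of the list to pass it there, and with H2O2 in DU145 0 passed, beside 15.2% of genes.

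The PAGE4 effect on FTH1 differed between the lines by -0.65 (22RV1 minus DU145, SE 0.17, 1.57-fold, adjusted p = 0.0498), the 1 call among 9 genes, beside 2.49% of all genes. It was not called with DESeq2 size factors (-0.63, adjusted p = 0.0573), with the Wald test of DESeq2 (-0.64, adjusted p = 0.693), without the 22RV1 PBS pair (-0.39, adjusted p = 0.0540) or without the DU145 PBS pair (-0.30, adjusted p = 0.581). ACO1 had a difference of 0.45 (SE 0.15), not called (adjusted p = 0.146), with single-pair values of 0.37 and 0.38 in 22RV1 and -0.14 and -0.03 in DU145 for PBS and H2O2.

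Among the tested genes, the other single-pair values of PAGE4 against vector were smaller. SLC40A1 was at -0.55 in DU145 with PBS (-0.77 to -0.34) and 0.50 in 22RV1 with H2O2 (0.23 to 0.77), and the remaining tested genes lay within -0.23 and 0.38. TF was over 1.5-fold lower in both 22RV1 pairs, at 6 against 23 reads with PBS (-1.68, -3.35 to -0.43) and 16 against 35 reads with H2O2 (-0.67, -1.63 to 0.21). No fold is given for TF in DU145 PAGE4 cells, whose 2 and 1 reads lie under the 3 reads that a count of 0 allows. In 22RV1, 19.7% of genes passed 1.5-fold with PBS and 23.2% with H2O2. These intervals cover counting error only.

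**Figure D4:**
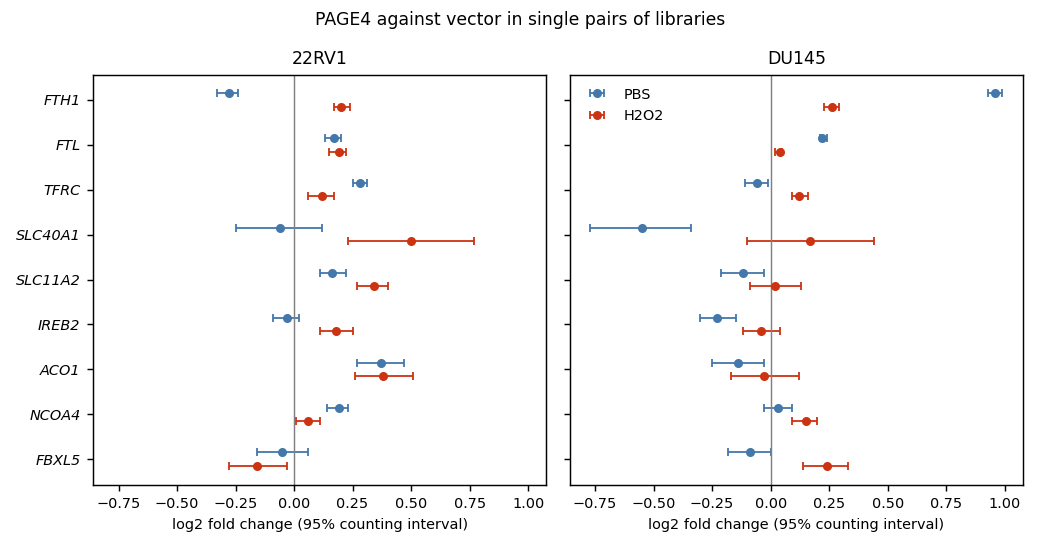
PAGE4 against vector in single pairs of libraries, as log2 fold change with 95% counting intervals, for cells with PBS and with H2O2. FTH1 in DU145 with PBS stands at 0.96, and the other values lie between -0.55 and 0.50.

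The genes whose levels ran closest to these were taken by Pearson's r of log2(CPM + 1), centred within each line, over the 8 libraries and 12356 genes. ZNF461 (0.989), SRXN1 (0.982), MAP7 (0.958) and C20orf24 (0.954) were closest to FTH1. SRXN1 is sulfiredoxin, which repairs oxidized peroxiredoxins. CYBA (0.988), DAB2IP (0.981), OAZ2 (0.979) and ID1 (0.966) were closest to FTL. HNRNPF (0.990), SSB (0.983) and HNRNPAB (0.981) were among the closest to TFRC. The 8 points share 2 lines and 1 treatment, and among so many genes high values of r occur, so the coefficients only describe these libraries.

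A further 65 genes of iron uptake, iron chaperones and export, heme synthesis, heme breakdown and iron-sulfur cluster assembly were examined, of which 59 passed the filter. With H2O2, 14 were higher and 16 lower in 22RV1, beside 15.2% and 16.9% of all genes. In DU145, 12 were higher and 23 lower, beside 19.2% and 22.8%. Across the 4 pairs 8 were higher and 12 lower, beside 10.2% and 12.7% of all genes. The median over the 59 genes was -0.17 across the pairs, against -0.04 over all genes tested. For PAGE4 across the 4 pairs, edgeR and DESeq2 each called 0 of the 59 genes, beside 0.136% of all genes called by edgeR. With edgeR 6 of the 59 had an unadjusted p under 0.05, a limit for which the share of all genes is not given here.

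Among 12 genes of iron uptake and release into the cytosol, 1 was higher and 4 were lower with H2O2 across the pairs. The shares over all genes were 10.2% and 12.7%. The STEAP genes encode metalloreductases, of which STEAP3 reduces iron released from transferrin. STEAP3 was at 22.9, 7.30, 19.6 and 9.29 CPM in 22RV1 and 85.6, 39.2, 76.9 and 36.0 CPM in DU145, and fell by 1.23 (SE 0.13, adjusted p = 0.00164). STEAP2 fell by 1.44 (adjusted p = 0.00538), more in 22RV1 than in DU145 (difference -0.87, SE 0.20, adjusted p = 0.00436), a difference not called with DESeq2 (-0.91, adjusted p = 0.149). MCOLN1, the endolysosomal channel that releases iron, fell by 0.52 (adjusted p = 0.0110), a call lost without the 22RV1 vector pair (adjusted p = 0.0513). SLC39A14, a transporter of iron not bound to transferrin, rose by 0.77 (adjusted p = 0.00518). TFRC and STEAP3 act in the same uptake route, and in DU145 TFRC rose while STEAP3 fell by 1.11 (SE 0.12, adjusted p = 5.14e-07).

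Of the 5 lists, heme synthesis had the fewest differences between the lines. Of its 8 genes, 0 were called by edgeR, beside 19.5% of all genes, and 0 by DESeq2. An unadjusted p under 0.05 was found for 2, a limit for which the share of all genes is not given here. The median absolute difference was 0.06, against 0.41 over all genes. ALAS1, which catalyses the rate-limiting step, rose by 0.57 (SE 0.09, adjusted p = 0.00541) across the pairs. PPOX (-1.07), UROS (-0.46), UROD (-0.38) and ALAD (-0.38), enzymes of later steps, fell, with adjusted p from 0.00306 to 0.0281. With total counts the decreases of UROD (adjusted p = 0.0595) and ALAD (adjusted p = 0.0692) were not called. Leaving out any 1 pair also ended both calls, and that of UROS was kept only without the 22RV1 PAGE4 pair. With all pairs, 5 of the 8 genes were lower, beside 12.7% of all genes, and leaving out 1 pair gave between 2 and 3.

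Heme breakdown and transport had the largest share of differences among the 5 lists, with 6 of 9 genes more positive in 22RV1 and 1 more negative, beside 19.5% of all genes called in either direction. Leaving out 1 pair gave 4 to 6 and 0 to 1. HMOX1, the inducible enzyme that frees iron from heme, went from 3.38 to 136 CPM and from 6.04 to 70.6 CPM in 22RV1, and from 86.8 to 120 CPM and from 85.6 to 101 CPM in DU145. It rose by 4.41 in 22RV1 (SE 0.24, adjusted p = 5.97e-11), and DU145 gave 0.35 (SE 0.19, adjusted p = 0.151). HMOX1 and FTH1 thus both had a higher PBS level in DU145 and a rise with H2O2 in 22RV1. In DU145, FTH1 also rose in the single vector pair (0.57) and not in the PAGE4 pair (-0.12). FLVCR2, a transporter related to the heme exporter FLVCR1, rose by 2.07 in 22RV1 and fell by 1.28 in DU145, from 1.59 to 10.2 CPM over the libraries. HMOX2, the constitutive enzyme, rose in both lines, by 0.39 in 22RV1 and 1.12 in DU145, and the 22RV1 call was lost without the 22RV1 vector pair (0.23, adjusted p = 0.275).

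Of 22 iron-sulfur cluster genes tested, 4 were higher and 2 lower across the pairs, or 18.2% and 9.09%, beside 10.2% and 12.7% of all genes. Leaving out 1 pair gave 2 to 4 higher and 0 to 2 lower. ISCU, the scaffold on which clusters are built, rose by 0.64 (SE 0.10, adjusted p = 0.00537), and IBA57, which matures late clusters, by 0.78 (adjusted p = 0.0109). ISCA2 fell by 0.53 (adjusted p = 0.0467), a decrease not called with total counts (adjusted p = 0.0887) or without any 1 of the 4 pairs (adjusted p from 0.0709 to 0.184). FDXR, the reductase that supplies electrons, rose by 2.1 in 22RV1 (SE 0.12, adjusted p = 1.23e-10) and fell by 0.33 in DU145 (adjusted p = 0.0408), a decrease not called with total counts, DESeq2, no filter or without the DU145 PAGE4 pair. Of 8 tested iron chaperone and export genes, 1 was higher and 1 lower: BMP6, which signals iron load to hepcidin, rose by 1.18 (adjusted p = 0.0111), and NEO1, a receptor that binds hemojuvelin, fell by 0.71 (adjusted p = 0.0132). The NEO1 call was lost without the DU145 vector pair (-0.60, adjusted p = 0.0581) or the DU145 PAGE4 pair (-0.61, adjusted p = 0.051), and with total counts 3 genes of the list were higher.

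**Figure D5:**
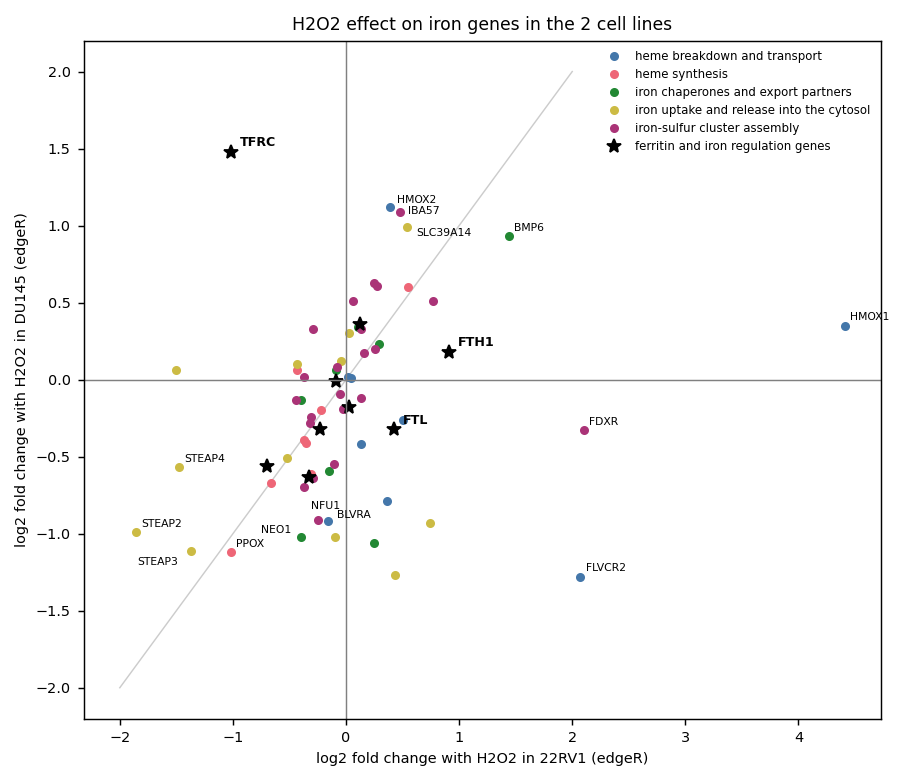
Log2 fold change with H2O2 in 22RV1 (x axis) and DU145 (y axis), from edgeR, for the 9 tested genes (stars) and 59 other iron genes (points coloured by list), with the grey diagonal for equal change. TFRC lies at -1.02 and 1.48, at the upper left, and HMOX1 at 4.41 and 0.35.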

How the data were processed

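Alignment by the authors used HISAT2 2.1.0 and GRCh38, featureCounts 1.6.0 assigned the reads to genes, and they deposited raw counts as 1 table for each line. The annotation release, strand setting and treatment of multi-mapped reads are not given in the sources used here. The tables list 58828 symbols, 26 of them turned into dates and kept as written. Columns were matched to samples by name.

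Libraries were normalized by TMM and edgeR 4.0.16 (R 4.3.3) was run on all 8 (quasi-likelihood test), with pairs as blocks, for 19784 genes passing filterByExpr by line, at an adjusted p (Benjamini-Hochberg) under 0.05. CPM are TMM-scaled, except those of the luminal, epithelial, mesenchymal, blood, endothelial and fibroblast markers, which are scaled to total counts. RPKM use the canonical transcript of GENCODE release 44. Standard errors were taken from the log2 fold change and the F statistic. Single pairs used size factors within a line, a pseudocount of 0.5, a mean normalized count of at least 10, a fold change over 1.5 and 95% Clopper-Pearson counting intervals. PCR copies cannot be told from separate molecules, so intervals cover counting error only. The code used numpy 2.4.6, scipy 1.17.1 and pandas 2.3.3. The tests were run on simulated data with 200 known 4-fold changes and a fixed spread, not one taken from repeated cultures. They recovered 180 for H2O2 in 22RV1, 147 in DU145, 163 for the difference of the H2O2 effects and 154 for that of the PAGE4 effects. The other comparisons recovered 199 or 200. Real changes can thus be missed, most of all within DU145 and in the differences.

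The genes described and the lists were chosen with earlier results of these data known. All 10 were named. Of the 5 other lists, genes called across the pairs or between the lines were eligible, and at most the 3 highest and 3 lowest per list were named. Some genes that these rules would name are not reported here. FTH1P20 was singled out after its values were seen. The alternatives were DESeq2 1.42.0 size factors or Wald test, total counts, library sizes without mitochondrial genes, no filter, the line alone as the block, each pair left out, and for single pairs TMM, total counts, a mean of at least 50, a fold change over 2 and a pseudocount of 1. Protein and xenograft data were not analysed here.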

Additional observations from a re-analysis of the deposited data

Results flagged for a closer look

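The effect of H2O2 differed between 22RV1 and DU145 for 3 of the 9 tested genes, beside 19.5% of all genes. By the test of the difference itself (edgeR, 22RV1 minus DU145, log2 scale) these were TFRC by -2.50, FTL by 0.74 and FTH1 by 0.74. The effect of PAGE4 differed for FTH1, by -0.65, the 1 call among the 9 genes, beside 2.49% of all genes. Each line is represented by 1 library per condition.

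Among the other iron genes given by name, the H2O2 effect was more positive in 22RV1 for HMOX1 (4.06), FLVCR2 (3.35), FDXR (2.43), ABCG2 (1.15), BLVRA (0.76), NFU1 (0.66), NEO1 (0.63), SLC48A1 (0.56) and HERC2 (0.45). It was more negative in 22RV1 for STEAP2 (-0.87), HMOX2 (-0.73), IBA57 (-0.62), SLC25A37 (-0.53) and SLC39A14 (-0.45). The differences of HMOX1, FLVCR2, FDXR, BLVRA and NEO1 were called under every alternative run. The differences of ABCG2, NFU1 and STEAP2 were not called with the Wald test of DESeq2, and that of NFU1 not without a filter. When 1 pair was left out, the calls of NFU1 and ABCG2 were lost without the 22RV1 PAGE4 pair or either DU145 pair, with adjusted p from 0.0716 to 0.27. That of SLC48A1 was lost without the 22RV1 PAGE4 pair or the DU145 PAGE4 pair (adjusted p = 0.13 and 0.207), and that of SLC39A14 without either DU145 pair (adjusted p = 0.0617 and 0.0523). Without the DU145 vector pair HERC2 (adjusted p = 0.107) and HMOX2 (adjusted p = 0.0557) were not called, and without the DU145 PAGE4 pair IBA57 (adjusted p = 0.0565) and SLC25A37 (adjusted p = 0.0707) were not. The call of FTH1 for H2O2 was lost without the DU145 PAGE4 pair and with the Wald test, and its call for PAGE4 with DESeq2 and without either PBS pair. Groups held too few samples to test for single libraries standing apart.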

How the results depend on the processing

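Of the values tested for the 9 genes under the alternatives, 502 kept direction and call, 29 lost the call, 13 gained it and 41 turned direction. None of the turned values had been called. With total counts in place of TMM, the median of all genes moved from -0.01 to 0.11 for H2O2 in 22RV1 and from 0.07 to 0.27 between the lines, so values there should be read against that shift. The share of called genes that were higher then went from 44.6% to 60.9% across the pairs and from 47.3% to 64.1% in 22RV1. Without a filter it went from 54.5% to 41.9% for the difference between the lines. Of the values called for other named iron genes, 762 kept direction and call and 84 lost the call. Depth limits TF most.

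With total counts, direction turned for IREB2 (0.044) and FBXL5 (0.010) across the pairs, IREB2 in 22RV1 (0.032) and DU145 (0.055), and ACO1 (0.092) and NCOA4 (0.131) between the lines. IREB2 also turned in DU145 with DESeq2 size factors (0.017), no filter (0.026) and the Wald test (0.019), and between the lines with the Wald test (-0.007). Without a filter FBXL5 turned in 22RV1 (-0.024) and SLC11A2 in the difference between the lines (-0.001). SLC40A1 turned for PAGE4 with DESeq2 size factors (0.007) and with the Wald test (0.007). None of these turned values was called, and the largest was 0.131.

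Across the 4 pairs with H2O2, the Wald test called 4 of the 9 genes (2 in the main fit). It also called more of all genes, 5679 against 4545. The genes it added to the list were FTH1 (0.555, adjusted p = 0.0325) and SLC11A2 (-0.266, adjusted p = 0.038). For PAGE4 across the pairs, 483 genes were called without a filter, 79 by the Wald test and 1 with the line alone as the block (27 otherwise), and 1 of the 9 genes without a filter. For the difference of the PAGE4 effects, 806 genes were called without a filter (492 otherwise), and 0 of the 9 with DESeq2 size factors or the Wald test. The cause was not tested.

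When each pair was left out in turn, the genes called ranged from 1929 to 3902 for H2O2 across the pairs (4545 with all), 3701 to 6045 in 22RV1, 5169 to 9185 in DU145, 2041 to 4223 for the difference, 9 to 40 for PAGE4, 192 to 1210 for the difference of the PAGE4 effects and 11154 to 11346 between the lines. Of the 9 genes, 0 to 1, 3 to 6, 4 to 7, 2 to 4, 0 to 0, 0 to 1 and 4 to 4 were called. Fewer libraries enter these fits. Across the pairs with H2O2, FTL ranged from -0.065 to 0.202, TFRC from -0.257 to 0.735, IREB2 from -0.089 to 0.029 and FBXL5 from -0.106 to 0.009. In 22RV1, IREB2 ranged from -0.221 to 0.017 and FBXL5 from -0.028 to 0.050. In DU145, FTH1 ranged from -0.178 to 0.532, the lowest without the vector pair, and IREB2 from -0.095 to 0.082. In the difference, SLC40A1 ranged from -0.489 to 0.218, SLC11A2 from -0.074 to 0.149 and IREB2 from -0.255 to 0.009. For PAGE4, SLC40A1 ranged from -0.160 to 0.180, IREB2 from -0.105 to 0.021 and FBXL5 from -0.108 to 0.027, and in the difference of the PAGE4 effects FTL ranged from -0.057 to 0.142 and NCOA4 from -0.019 to 0.086. Between the lines, IREB2 ranged from -0.030 to 0.063 and ACO1 from -0.229 to 0.023.

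In single pairs, the genes over the fold limit with a mean of at least 50 numbered 4290, 3079, 4588 and 4757 for H2O2 in 22RV1 vector, 22RV1 PAGE4, DU145 vector and DU145 PAGE4 cells, and 1215, 1770, 645 and 607 for PAGE4 in 22RV1 with PBS and H2O2 and in DU145 with PBS and H2O2. A fold change over 2 gave 3664, 2885, 3289 and 3351, and 1853, 2126, 1115 and 1160. Of the 10 genes, a fold change over 2 left 0 in 22RV1 vector cells and 1 in DU145 vector cells with H2O2, and 0 for PAGE4 in 22RV1 with H2O2 and in DU145 with PBS. A mean of at least 50 left 0 for PAGE4 in both 22RV1 pairs, where TF had been over the limit.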
